A study of Mus musculus with 10 samples.

Results

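The type IV collagen chains are the 6 mouse genes Col4a1 to Col4a6, and all 6 were found by symbol among the 57010 gene rows of the deposited table. They were measured by bulk RNA sequencing in the retinas of 10 mice, injected in the vitreous at an age of 6 to 8 weeks and sampled 14 days later. The vector, given to 5 mice per group, was an adeno-associated virus with the same reporter, green fluorescent protein, packaged either in AAV2, a capsid widely used for the inner retina (AAV2-GFP), or in AAV206, a capsid that the study's title links to the retinal pigment epithelium (AAV206-GFP). Both groups were injected and untreated retinas were not analysed here, so values compare one vector with the other. Strain, sex and the promoter driving the reporter are not given in the sources used here. The family was selected on the measured rise of Col4a3 with AAV206-GFP, so that difference is described without a test. The other 5 chains entered by name, with their values already known.

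Type IV collagen is the network-forming collagen of basement membranes, the thin sheets that underlie epithelia and surround vessels. Each chain carries a long triple-helical stretch and a C-terminal NC1 domain, by which trimers join end to end. The chains assemble into only a few trimers: α1 with α2, which is found in nearly all basement membranes, α3 with α4 and α5, and α5 with α6. In the eye these networks lie in the vessel walls, in the inner limiting membrane at the vitreous, in Bruch's membrane beneath the pigment epithelium and in the lens capsule. Mutations of the human α3, α4 and α5 genes cause Alport syndrome, which affects kidney, ear and eye. The genes lie in 3 pairs, each pair arranged head to head, so that the partners are transcribed away from each other from nearby starts.

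The pairs differ in how close these starts are in the GRCm38 annotation (GENCODE M21). Col4a1 (ENSMUSG00000031502, chr8:11198423-11312826, minus strand) and Col4a2 (ENSMUSG00000031503, chr8:11312805-11449287, plus strand) overlap at their 5′ ends by 22 bases. Col4a4 (ENSMUSG00000067158, chr1:82448423-82586849, minus strand) and Col4a3 (ENSMUSG00000079465, chr1:82586921-82722059, plus strand) are separated by 71 bases. Col4a6 (ENSMUSG00000031273, chrX:141165403-141474076, minus strand) and Col4a5 (ENSMUSG00000031274, chrX:141475385-141689234, plus strand) are separated by 1308 bases. The submitters' processing notes name the same build, mm10.

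The stretch between the starts of Col4a4 and Col4a3 is printed because both of these chains were higher with AAV206-GFP. The 71 bases that adjoin the RefSeq starts of Col4a6 (141474095) and Col4a5 (141475370), which differ slightly from the GENCODE starts above, are printed beside it, because the starts of that pair lie farther apart. The sequences are from RefSeq promoter windows (GRCm38.p6), which matched 5 of the 6 chains (Col4a3 was not among them), and are written on the plus strand. Capitals mark the match to a motif searched. RefSeq's own extent of Col4a4, which includes predicted models, reaches beyond the first stretch.
between Col4a4 and Col4a3, chr1:82586850-82586920: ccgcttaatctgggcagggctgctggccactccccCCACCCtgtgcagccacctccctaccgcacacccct
beside Col4a6, chrX:141474096-141474166: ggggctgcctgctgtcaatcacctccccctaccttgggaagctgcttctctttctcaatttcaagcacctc
beside Col4a5, chrX:141475299-141475369: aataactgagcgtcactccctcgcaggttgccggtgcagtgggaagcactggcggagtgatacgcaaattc

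The Col4a4 to Col4a3 stretch was richer in G and C, at 69.0%, than the stretches beside Col4a6 (54.9%) and Col4a5 (56.3%). The median over the 71 bases before the start in all 32851 promoter windows was 54.9%. The GC box was searched as GGGCGG on both strands and is held by 20.7% of all windows of this length. A close relative of it, GGGTGG, is held by 10.5%, the CCAAT box, searched by those letters, by 13.3%, and the TATA box, searched as TATAAA, by 4.41%. The stretch between Col4a4 and Col4a3 held 1 match, to GGGTGG, which reads as its reverse complement above, and none to the other motifs. Beside Col4a5 and Col4a6 none of the 4 motifs was matched. A match describes letters in a window and not a bound site.

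Total counts lay between 10989843 and 12752604 per library, and 3 counts, the floor for counting error, correspond to 0.232 to 0.274 CPM (counts scaled to a common library total). All 6 chains were above it in every library, with 23 to 749 counts, and none carried the decimals that shared reads would give. Photoreceptor, Müller glia and bipolar markers were abundant in all libraries, while Best1, Mlana and Tyr of the pigment epithelium list stayed under 1 CPM. Of the 8 genes in that list 5 were tested. The 8 summed to 8.09 to 27.3 CPM with AAV2-GFP and 10.5 to 16.7 CPM with AAV206-GFP. Microglia and macrophage markers (8 genes) summed to 216 CPM in AAV2-GFP replicate 1 and to 20.0 to 41.5 CPM in the other 9 retinas. Leaving out AAV2-GFP replicates 1 and 4 changed no chain's call. Levels below are CPM scaled by trimmed mean of M values (TMM), and tests across genes are edgeR quasi-likelihood tests on 15539 genes with Benjamini-Hochberg adjustment, passed at an adjusted p under 0.05. In whole retina, fewer cells of a type and less RNA per cell cannot be told apart.

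Col4a3, which encodes the α3 chain and its NC1 domain, the target of Goodpasture autoantibodies, was at 22.4, 23.7, 21.3, 19.4 and 22.6 CPM in AAV2-GFP replicates 1 to 5. With AAV206-GFP it was at 44.8, 53.8, 51.4, 48.8 and 63.5 CPM. Every AAV206-GFP retina lay above every AAV2-GFP retina; replicate 1 was the lowest of its group and replicate 5 the highest. The means were 21.9 ± 1.66 and 52.5 ± 7.01 CPM (SD, n = 5). Their difference on the log2 scale was 1.26 (SE 0.09), or 2.40-fold. Among all tested genes 109, Col4a3 included, had a log2 fold change at least this high. No p-value is given, since this difference chose the gene.

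Col4a4, the head-to-head partner of Col4a3, encodes the α4 chain of the same trimer. It was at 17.7, 22.5, 11.5, 19.9 and 17.3 CPM in AAV2-GFP replicates 1 to 5, and at 40.7, 37.2, 34.0, 33.7 and 40.3 CPM in AAV206-GFP replicates 1 to 5. The groups did not overlap, and AAV2-GFP replicate 3 was the lowest. Col4a4 rose from 17.8 ± 4.06 to 37.2 ± 3.33 CPM (SD, n = 5), or on the log2 scale by 1.07 (SE 0.13; edgeR adjusted p = 0.00013). As a fold this was 2.10, with a 95% interval of 1.72 to 2.55. It was past the threshold in all 20 alternative fits, including the 10 that left out a library, with log2 fold changes from 0.94 to 1.16. Of the 15539 genes tested, 5.95% passed as higher with AAV206-GFP, and in 5.41% the AAV206-GFP retinas all lay above the AAV2-GFP retinas; 5.3% passed as lower, and 9.78% did not overlap in either direction. Of the 5 chains other than Col4a3, Col4a4 passed as higher and was the one without overlap, and the other 4 did not pass. Nothing is read from that count, since the family was taken up with these values known.

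**Figure D1:**
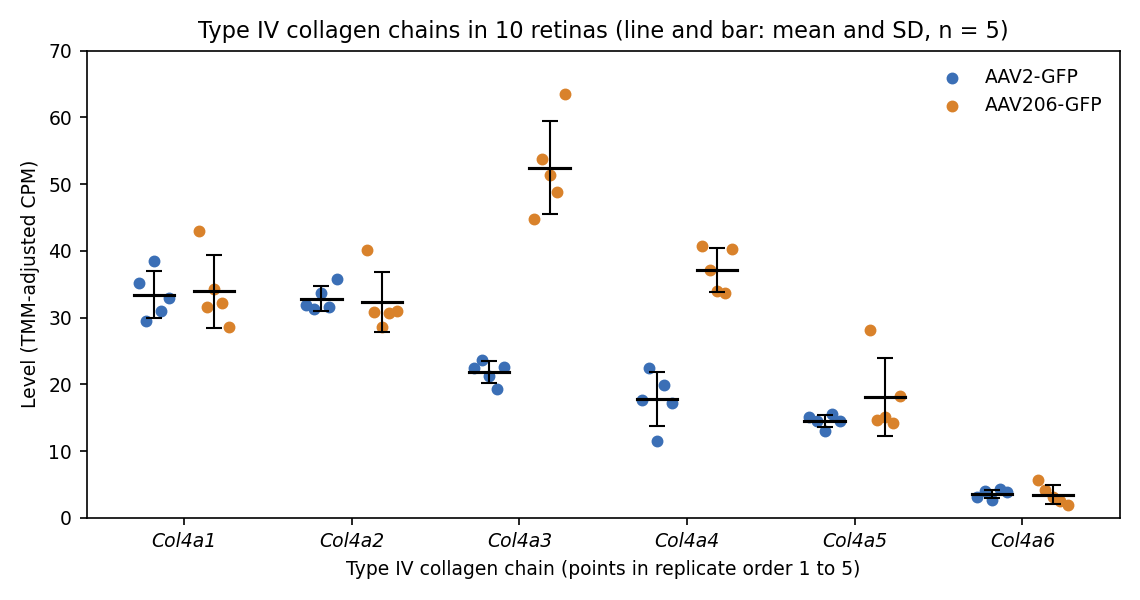
TMM-adjusted CPM (y axis) of the 6 chains (x axis) in each retina, as points in replicate order, with AAV2-GFP in blue and AAV206-GFP in orange; lines and bars are mean and SD (n = 5). Col4a3 and Col4a4 do not overlap between the groups. AAV206-GFP replicate 1 is the highest point for every chain but Col4a3. For Col4a4 it is at 40.7 CPM, against 40.3 CPM in AAV206-GFP replicate 5.

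Col4a1 and Col4a2, the chains of the common vessel wall network, did not pass. Col4a1 was at 35.2, 29.5, 38.5, 31.1 and 33.0 CPM in AAV2-GFP replicates 1 to 5 and at 43.0, 31.6, 34.2, 32.2 and 28.7 CPM in AAV206-GFP replicates 1 to 5. The groups overlapped over most of their range, with means of 33.4 ± 3.55 and 33.9 ± 5.44 CPM (SD, n = 5), and the log2 fold change was 0.02 (SE 0.11; edgeR adjusted p = 0.921). Its 95% interval in folds ran from 0.869 to 1.18. Col4a2 was at 31.9, 31.3, 33.6, 31.6 and 35.8 CPM with AAV2-GFP and at 40.1, 30.9, 28.6, 30.8 and 31.0 CPM with AAV206-GFP, in replicate order. All AAV206-GFP retinas but replicate 1 lay below the lowest AAV2-GFP retina, the means were 32.8 ± 1.89 and 32.3 ± 4.49 CPM (SD, n = 5), and the log2 fold change was -0.02 (SE 0.09; edgeR adjusted p = 0.893; 95% interval 0.861 to 1.12 in folds). Both intervals end below the lower bound of the Col4a4 interval, 1.72.

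Col4a5 encodes the α5 chain, which both the α3 and α4 network and the α6 network need. It was at 15.1, 14.5, 13.1, 15.5 and 14.4 CPM in AAV2-GFP replicates 1 to 5 and at 28.1, 14.6, 15.2, 14.3 and 18.2 CPM in AAV206-GFP replicates 1 to 5. AAV206-GFP replicate 1 stood alone at the top, and 3 of its group lay within the AAV2-GFP range. The means were 14.5 ± 0.920 and 18.1 ± 5.82 CPM (SD, n = 5). The log2 fold change was 0.32 (SE 0.16; edgeR adjusted p = 0.217; 95% interval 0.980 to 1.59 in folds), and 0.10 without that retina (edgeR adjusted p = 0.584). Its partner Col4a6, for the α6 chain, was the scarcest, at 3.16, 3.95, 2.71, 4.28 and 3.84 CPM with AAV2-GFP and 5.64, 4.10, 3.19, 2.51 and 1.95 CPM with AAV206-GFP, in replicate order. The AAV206-GFP values spread on both sides of the AAV2-GFP values, around means of 3.59 ± 0.638 and 3.48 ± 1.45 CPM (SD, n = 5), with a log2 fold change of -0.04 (SE 0.27; edgeR adjusted p = 0.938; 95% interval 0.655 to 1.44 in folds).

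The response of Col4a4 was compared directly with that of the 4 chains outside its pair, by the change in its log2 ratio to each, a comparison chosen after the values were seen. The ratio of Col4a4 to Col4a1 went from -0.94 ± 0.51 to 0.14 ± 0.23 (SD, n = 5), a difference of 1.08 (exact permutation test, two-sided, p = 0.00794, the smallest possible, adjusted over the 4 ratios 0.0106). To Col4a2 the difference was 1.12 and to Col4a6 it was 1.21, both with the same exact permutation p and adjusted value. To Col4a5 it was 0.82 (exact permutation test, two-sided, p = 0.0159, adjusted 0.0159). All 4 stayed past the threshold in the 13 other settings tried for each. The 4 ratios share Col4a4 and were chosen with its rise known. Their p-values therefore describe the difference and are no independent evidence for it. In these retinas Col4a4 changed by more than each chain of both other pairs.

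Within pairs, the balance of the partners was measured as the ratio of their CPM in each retina. For Col4a1 over Col4a2 the ratio lay between 0.921 and 1.14 with AAV2-GFP and between 0.924 and 1.20 with AAV206-GFP. The change in log2 ratio was 0.05 (exact permutation test, two-sided, p = 0.611, adjusted over the 2 ratios tested 0.611). For Col4a5 over Col4a6 the ratio lay between 3.56 and 4.69 with AAV2-GFP and between 3.49 and 8.94 with AAV206-GFP. Its change of 0.39 did not pass (exact permutation test, two-sided, p = 0.151, adjusted 0.302), and it passed only without AAV206-GFP replicate 2, at 0.53 (exact permutation test, two-sided, p = 0.0238, adjusted 0.0476).

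For Col4a3 over Col4a4 the ratio is described without a test. It was 1.26, 1.06, 1.84, 0.972 and 1.31 in AAV2-GFP replicates 1 to 5, and 1.10, 1.44, 1.51, 1.45 and 1.58 in AAV206-GFP replicates 1 to 5. The ranges overlapped, and the AAV2-GFP values spanned those of AAV206-GFP. The partners were thus both about double with AAV206-GFP, and the log2 ratio went from 0.33 ± 0.36 to 0.49 ± 0.20 (SD, n = 5), a change of 0.16. That change depended on single retinas: it was 0.30 without AAV2-GFP replicate 3, 0.25 without AAV206-GFP replicate 1, 0.10 without AAV2-GFP replicate 2 and 0.07 without AAV2-GFP replicate 4.

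**Figure D2:**
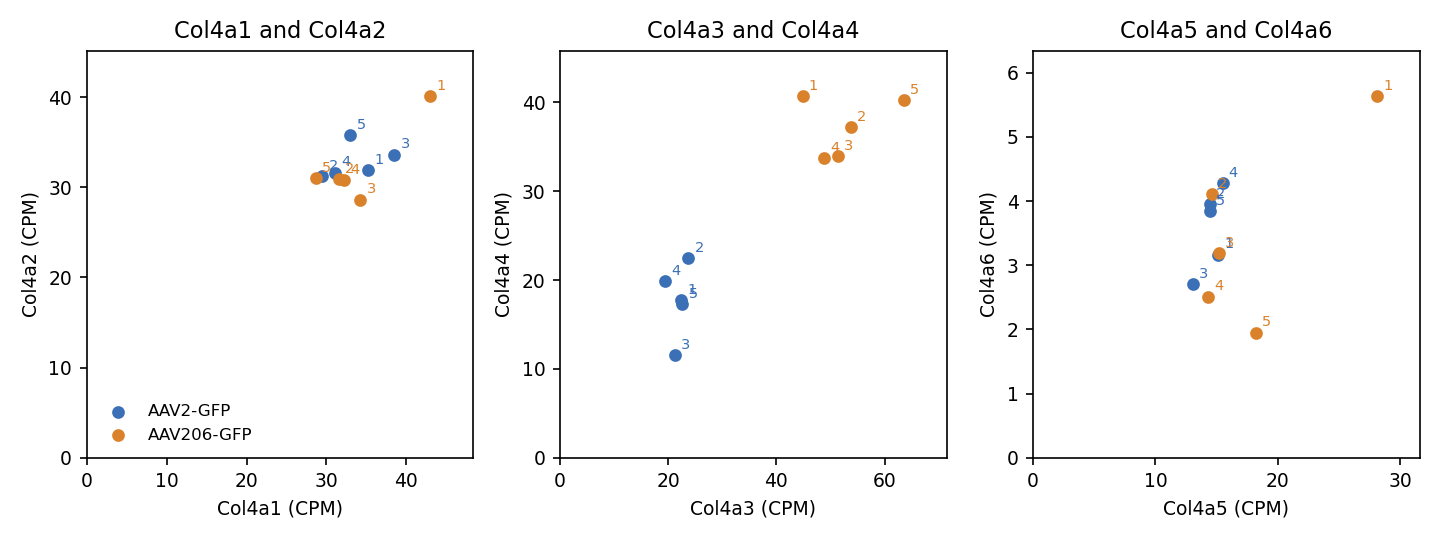
CPM of one partner against the other in each retina, for the 3 head-to-head pairs, with the replicate number beside each point (blue AAV2-GFP, orange AAV206-GFP). The groups form separate clouds for Col4a3 and Col4a4, from 19.4 to 23.7 against 44.8 to 63.5 CPM of Col4a3, and mix in both other pairs.

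Compared between genes, levels were divided by the summed length of each gene's exons and are given as CPM per kilobase. The lengths are from GENCODE M21. They may differ from those of the annotation the reads were counted on, which is not given. With AAV2-GFP the order was Col4a2 at 4.96 ± 0.285, Col4a1 at 4.48 ± 0.476, Col4a3 at 2.20 ± 0.166, Col4a5 at 2.16 ± 0.137, Col4a4 at 1.68 ± 0.382 and Col4a6 at 0.450 ± 0.0800 (SD, n = 5). The ranges of Col4a1 and Col4a3 did not overlap, nor did those of Col4a4 and Col4a6, while every other neighbouring pair in the order overlapped.

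With AAV206-GFP the order per length was Col4a3 at 5.26 ± 0.703, Col4a2 at 4.88 ± 0.678, Col4a1 at 4.55 ± 0.729, Col4a4 at 3.50 ± 0.313, Col4a5 at 2.69 ± 0.867 and Col4a6 at 0.436 ± 0.182 CPM per kilobase (SD, n = 5). Col4a3 exceeded Col4a2 in 4 of 5 retinas, and the ranges of Col4a3 and Col4a2 overlapped, as did those of Col4a2 and Col4a1 and of Col4a4 and Col4a5. The lowest Col4a1, at 3.840, lay just above the highest Col4a4, at 3.837, and Col4a5 lay above Col4a6 without overlap. The chains of the α3, α4 and α5 trimer stood at 2.20, 1.68 and 2.16 CPM per kilobase with AAV2-GFP and at 5.26, 3.50 and 2.69 with AAV206-GFP. The mean of 2.69 for Col4a5, which did not pass, includes AAV206-GFP replicate 1 at 4.18. The other retinas of that group were at 2.12 to 2.71. With the longest transcript as the length, Col4a1 and Col4a2 changed places with AAV206-GFP, at 5.13 and 5.01.

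Whether chains vary together from mouse to mouse was asked after removing each group's mean, which also removes the difference that chose Col4a3. Correlations were computed for all 15 combinations of chains over the 10 retinas, on log2(CPM + 0.1), with exact two-sided permutation within groups. None passed adjustment over the 15, and 1 had an unadjusted exact permutation p under 0.05. For Col4a1 and Col4a2 Pearson's r was 0.69 (exact permutation p = 0.0890, adjusted 0.324) and Spearman's rho was 0.53 (exact permutation p = 0.146, adjusted 0.547). Without AAV2-GFP replicate 3 and AAV206-GFP replicate 1, the 2 farthest from the median of Col4a1, r was -0.06. Leaving out AAV206-GFP replicate 1 alone gave an r of 0.099 and leaving out AAV2-GFP replicate 3 alone 0.73, so the relation rests on AAV206-GFP replicate 1.

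For Col4a3 and Col4a4 r was 0.16 (exact permutation p = 0.605, adjusted 0.648) and rho 0.14 (exact permutation p = 0.707, adjusted 0.958), with r at 0.24 without the 2 farthest retinas. The partners that shared the group difference thus showed no detectable covariation within groups at this number of mice. For Col4a5 and Col4a6 r was 0.55 (exact permutation p = 0.283, adjusted 0.425) and rho 0.26 (exact permutation p = 0.529, adjusted 0.958), and r was -0.38 without AAV206-GFP replicates 1 and 4. The combination with the smallest p was Col4a4 with Col4a5, chains of one trimer encoded on different chromosomes, with r at 0.42 (exact permutation p = 0.0115, adjusted 0.173) and rho at 0.75 (exact permutation p = 0.00563, adjusted 0.0844). Without AAV2-GFP replicates 2 and 3 its r was 0.70, and leaving out AAV2-GFP replicate 2 alone brought it past the threshold (r = 0.50, exact permutation adjusted p = 0.0365). Leaving out AAV206-GFP replicate 1 made Col4a1 with Col4a4 the 1 combination past it. Over all 10 retinas the r of Col4a1 with Col4a4 was negative, at -0.44 (exact permutation p = 0.151, adjusted 0.324). Without AAV2-GFP replicate 3 and AAV206-GFP replicate 1 it was -0.89.

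By the same group-centred Pearson r over 10 retinas, the chain of each pair with the higher mean CPM, not divided by length, was set against 13425 protein-coding genes whose mean reached 1 CPM. The 5 genes most like Col4a3 were Gm20517 (0.94), Nipal3 (0.94), Hnrnpr (0.91), Jcad (0.91) and Bcorl1 (0.90), and Col4a4 ranked 4370. The 5 most like Col4a1 were Pdcd10 (0.95), Asb2 (0.93), Arglu1 (0.93), Degs1 (0.93) and Tle6 (0.91), and Col4a2 ranked 249. The 5 most like Col4a5 were Arhgef19 (0.95), Slc27a1 (0.94), Gm47283 (0.94), Ccdc74a (0.93) and Adam11 (0.92), and Col4a6 ranked 1123. None of these 15 genes passed in the group comparison. They are the highest of 13425 values of r from 10 retinas, for which no p-value was computed. No shared regulation is read from them. The ranks moved with 1 library: without AAV206-GFP replicate 1, Col4a2 ranked 5910 and Col4a6 ranked 10024.

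The genes around each pair were then listed, by a rule set after the chains' values were seen: the 3 nearest tested genes on either side. Of these 18 neighbours, 3 passed in the edgeR test, 2 higher and 1 lower, against 11.2% of all tested genes. Beside Col4a4, Rhbdd1, which encodes a rhomboid-family membrane protease, lies 3057 bases beyond the 3′ end of Col4a4. It was at 14.4, 13.0, 13.8, 13.1 and 12.8 CPM in AAV2-GFP replicates 1 to 5 and at 17.2, 23.2, 18.3, 25.2 and 16.0 CPM in AAV206-GFP replicates 1 to 5, without overlap. Rhbdd1 rose by a log2 fold change of 0.57 (SE 0.13; edgeR adjusted p = 0.00937), and it passed in all 20 alternative fits. Its order among the AAV206-GFP retinas was not that of Col4a3, since replicate 5 was lowest for Rhbdd1 and highest for Col4a3.

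On the far side of Col4a3, Mff, a mitochondrial fission factor, lies 2831 bases away and had a log2 fold change of 0.07 (SE 0.06; edgeR adjusted p = 0.475). Gm28941, annotated as a sense intronic transcript, had a log2 fold change of 1.03 (SE 0.39; edgeR adjusted p = 0.0974), at 0.746 ± 0.358 and 1.53 ± 0.390 CPM (SD, n = 5). The non-coding gene C430014B12Rik overlaps Col4a3 on the opposite strand, and with 1 to 6 counts in an AAV2-GFP library and 4 to 12 in an AAV206-GFP library it was too low to be tested. Reads of overlapping opposite genes cannot be told apart where strand is not kept, which the labels do not state, and their part in the Col4a3 value was not tested. The others that passed were Rab20 (log2 fold change -1.05, edgeR adjusted p = 0.0414), 4231 bases beyond Col4a2, and Mid2 (0.42, edgeR adjusted p = 0.0451), 397688 bases beyond Col4a6. Neither lies beside a chain that passed. Rab20 lost its call in 12 and Mid2 in 11 of 20 alternative fits.

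**Figure D3:**
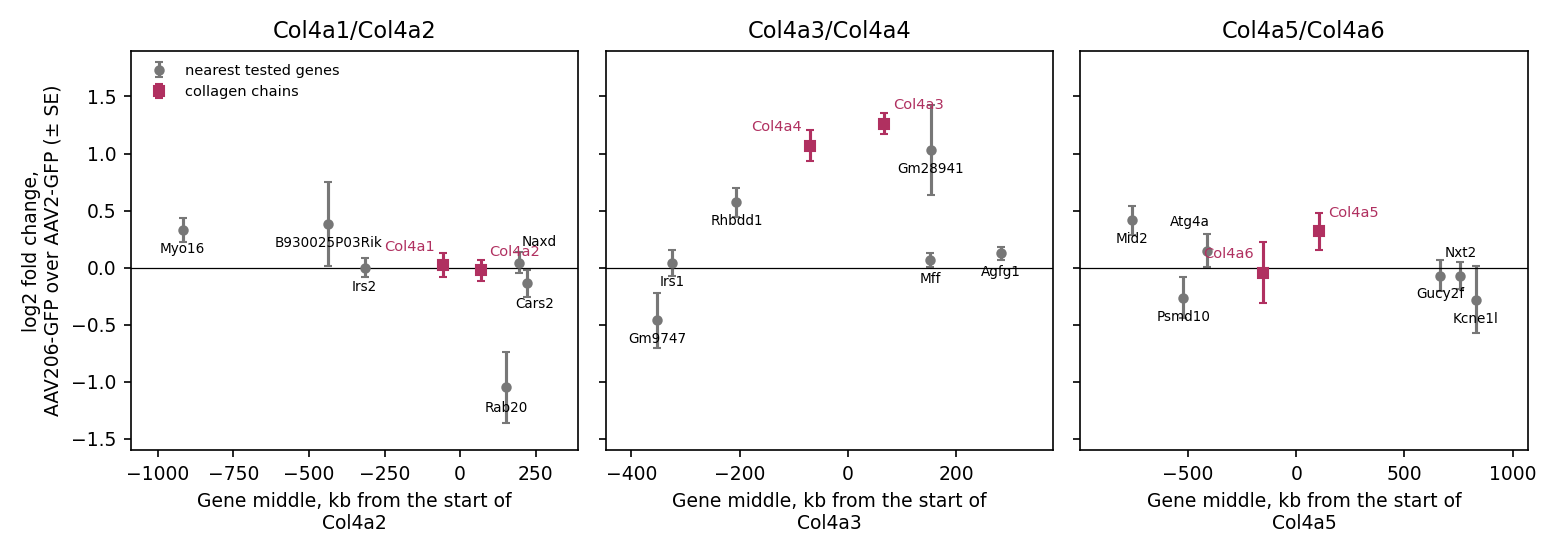
log2 fold change of AAV206-GFP over AAV2-GFP (y axis, ± SE) for the chains of each pair (red squares) and the 3 nearest tested genes on either side (grey circles), by distance of the gene's middle in kb from the start of the plus-strand chain. Col4a3 at 1.26 and Col4a4 at 1.07 stand above Rhbdd1 at 0.57, and Mff on the other side is at 0.07.

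Genes that fold, link, bind or degrade type IV collagen were described from 6 lists of 68 genes, of which 62 were tested. In the edgeR test 1 passed as higher and 7 as lower (12.9% of the lists against 11.2% of all tested genes). The median log2 fold change was -0.09, against -0.0095 over all tested genes. By direction, 11.3% passed as lower against 5.3% of all tested genes, and 1.61% as higher, the direction of Col4a3 and Col4a4, against 5.95%. The lists were written with earlier results of these data known. Nothing is therefore read from these counts, or from those of single lists below, beyond the genes named.

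In the list of collagen folding and export, 4 of 21 tested genes passed, all lower (19.0%, against 5.3% of all tested genes). Plod1, a lysyl hydroxylase that prepares collagen for glycosylation and crosslinking, fell from 23.3 ± 0.857 to 15.6 ± 0.413 CPM (SD, n = 5), which on the log2 scale is -0.58 (SE 0.08; edgeR adjusted p = 0.000318). Serpinh1, the collagen chaperone HSP47, had a log2 fold change of -0.46 (edgeR adjusted p = 0.0336), the lysyl hydroxylase Plod2 -0.33 (edgeR adjusted p = 0.0344) and the prolyl 4-hydroxylase subunit P4ha1 -0.33 (edgeR adjusted p = 0.0397). P4hb, with the highest CPM of the list over both groups, was at 158 ± 7.41 and 142 ± 8.93 CPM (SD, n = 5) and did not pass (edgeR adjusted p = 0.107). Plod1 passed in all 20 alternative fits, whereas Serpinh1 lost its call in 10 and Plod2 and P4ha1 in 9 each.

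Of the 5 tested crosslinking genes none passed in edgeR, 0 had an unadjusted p under 0.05 and DESeq2 called 0, and Pxdn, the peroxidase that forms the sulfilimine bonds between NC1 domains, had a log2 fold change of -0.03. Of the 9 basement membrane partners none passed in edgeR, 2 had an unadjusted p under 0.05 and DESeq2 called 1; Agrn, with the highest CPM, was at 118 ± 11.3 and 131 ± 25.0 CPM (SD, n = 5; edgeR adjusted p = 0.379). Among 10 tested receptors Ddr1, a collagen-binding receptor kinase, passed as lower, from 132 ± 9.75 to 109 ± 12.6 CPM (SD, n = 5; log2 fold change -0.28, edgeR adjusted p = 0.0363). Among 6 tested turnover genes Mmp15, a membrane-bound metalloproteinase, fell from 20.4 ± 1.09 to 14.6 ± 0.764 CPM (SD, n = 5; log2 fold change -0.48, edgeR adjusted p = 0.00292), and Timp2, a metalloproteinase inhibitor with the highest CPM of the list, had a log2 fold change of -0.05 (edgeR adjusted p = 0.640). In the list of the TGF-β pathway, known for inducing matrix genes, the signal transducer Smad2 rose (0.24, edgeR adjusted p = 0.0268) and the target gene Ccn2 fell (-0.41, edgeR adjusted p = 0.0478), with 9 others not past the threshold. Smad2 lost its call in 8, Ccn2 in 9 and Ddr1 in 6 of 20 alternative fits.

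The count of 8 pathway genes was sensitive to single libraries. It was 2 or 3 without AAV2-GFP replicate 3, 4 or 5 or AAV206-GFP replicate 2, 3 or 4, 5 without AAV206-GFP replicate 1, and 4 with the replicate number as a block. Plod1 and Mmp15 passed in every one of the 20 fits.

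**Figure D4:**
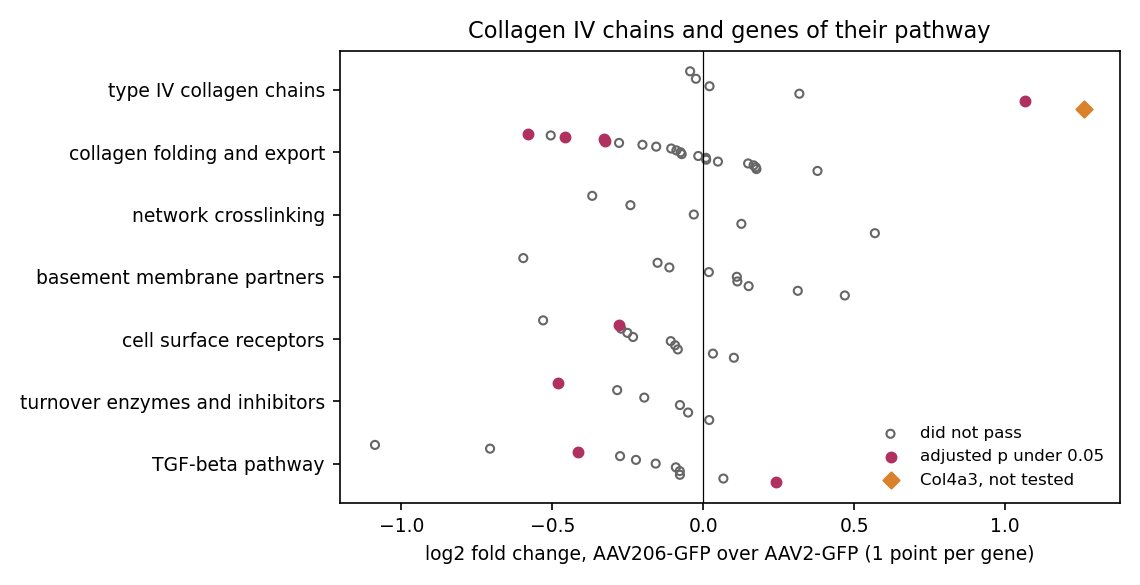
log2 fold change of AAV206-GFP over AAV2-GFP (x axis, 1 point per gene) for the chains and the 6 pathway lists (y axis); filled red points had an edgeR adjusted p under 0.05, open points did not, and Col4a3 (orange) was not tested. The 2 chains at the right are at 1.07 and 1.26, and the pathway genes run from -1.09 to 0.569. Col4a3 was chosen for its rise and the lists were written with earlier results known, so nothing is read from this contrast.

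Markers of cells that make or border basement membranes were summed in each retina and set beside these results. The 10 endothelial markers summed to 225 to 271 CPM with AAV2-GFP and 181 to 209 CPM with AAV206-GFP, without overlap. Of them 2 passed as lower and none as higher, against 5.3% and 5.95% of all tested genes. The 10 pericyte and smooth muscle markers summed to 127 to 141 and 112 to 130 CPM, and the 7 Müller glia markers to 2833 to 3738 and 2905 to 3374 CPM. The 6 fibroblast markers summed to 15.3 to 34.4 and 14.2 to 24.4 CPM, with Lum under 1 CPM throughout. The 8 pigment epithelium markers summed to 8.09 to 27.3 and 10.5 to 16.7 CPM and the 4 astrocyte markers to 38.6 to 92.2 and 23.7 to 86.9 CPM. Of the lists summed, endothelium was the one that was lower with AAV206-GFP without overlap. Lower calls were not confined to it, since 2 of 4 tested lens markers also passed as lower. So did 1 each of the fibroblast, microglia and macrophage, bipolar and ganglion cell markers. Red blood cell markers (5 genes) summed to 67.8 to 85.8 against 101 to 319 CPM, without overlap. Rod markers (5 genes) summed to 49310 to 52480 against 52930 to 58150 CPM, also without overlap. Of these, 4 red blood cell markers and 1 rod marker passed as higher, against 5.95% of all tested genes. The part of these lists in the result was not tested.

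The lens, whose capsule is a type IV collagen sheet, was represented by 9 markers that summed to 14.5 to 33.8 CPM with AAV2-GFP and 1.79 to 17.8 CPM with AAV206-GFP. Lim2 was at 0 in every library, and Bfsp1, Bfsp2 and Mip stayed under 1 CPM. AAV206-GFP replicate 1, highest for every chain but Col4a3, had the 17.8 CPM, against 1.79 to 8.23 CPM in the other retinas of its group. AAV2-GFP replicates 1 and 5 had larger lens sums, 21.7 and 33.8 CPM, with Col4a5 at 15.1 and 14.4 CPM. In AAV206-GFP replicate 1 the red blood cell sum was 256 CPM, the endothelial sum was 197 CPM and the pericyte and smooth muscle sum 112 CPM, the lowest of all 10. Whether any of these sources contributed to its chain levels was not tested. Without that retina Col4a3 and Col4a4 had log2 fold changes of 1.31 and 1.03.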

How the data were processed

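Total RNA was taken from the retina with Trizol, an NEBNext Ultra RNA kit was used for the libraries, and fragments were sequenced from both ends over 150 bases, per the labels' protocols. The deposited values are RSEM-type estimated counts for each gene, with no scaling across libraries; STAR 2.7.10b, RSEM 1.3.1 and the build mm10 are named in the submitters' processing notes, and the annotation is not given in the sources used here. Of all values 5.95% carry decimals, so counts were rounded. Symbols, positions and lengths came from GENCODE M21, which named 98.4% of the 15539 genes tested. Rows of the table with no M21 entry (4929) carry no symbol.

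Genes were kept by filterByExpr (minimum count 10), scaled by TMM and fitted with edgeR 4.0.16 in R 4.3.3 (glmQLFit, glmQLFTest) over all 10 libraries without covariates, with a threshold of 0.05 on the Benjamini-Hochberg adjusted p. The procedure was tested on simulated data. Standard errors (SE) are |log2 fold change| / √F, and 95% intervals use the test's degrees of freedom. Ratios and covariation used log2(CPM + 0.1), with exact permutation over 252 relabellings of the libraries or 14400 reassignments within groups. The genes named were the chains, the members of each pathway list past the threshold (at most 4) with the one of highest mean CPM, and the 5 genes most like Col4a1, Col4a3 and Col4a5; neighbouring genes were added after values were seen. The members and lists were chosen with earlier results of these data known. The labels describe 5 mice per group, so p-values measure the spread between these mice. Within-group pairs of libraries differed by 3.69 to 22.3 chi-square units per degree of freedom, so none was the same library sequenced again. That check cannot show that each library came from a different mouse, which rests on the labels. Amplified reads are not independent molecules, so the floor covers counting error only. Alternatives were other scalings, filters and tests (DESeq2 1.42.0, limma 3.58.1), no rounding, the replicate block and leaving out libraries.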

Additional observations from a re-analysis of the deposited data

Results flagged for a closer look

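In 4 of 44 group results examined, 1 retina lay far from the other 4 of its group, by its gap to the nearest other divided by the group's range (Dixon's ratio, critical value 0.71); chance would give about 2.2. AAV206-GFP replicate 1 gave 3 of them. It was high for Col4a2 (40.1 against 28.6 to 31.0 CPM, ratio 0.791) and for Col4a5 (28.1 against 14.3 to 18.2 CPM, ratio 0.713). Its log2 ratio of Col4a3 to Col4a4 was low (0.14 against 0.53 to 0.66, ratio 0.759), since it had the lowest Col4a3 and the highest Col4a4 of its group. AAV2-GFP replicate 3 was high for the receptor kinase Ddr1 (149 against 124 to 131 CPM, ratio 0.720), and without it the log2 fold change of Ddr1 was -0.23 against -0.28 (edgeR adjusted p = 0.0868). Ddr1 also lost its call in 5 other alternative fits.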

How the results depend on the processing

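Col4a4 passed in all 20 alternative fits, and Col4a3 had log2 fold changes from 1.19 to 1.31 in them. Col4a1, Col4a2, Col4a5 and Col4a6 passed in none of theirs. With 1 library left out, the log2 fold change ranged from -0.079 to 0.078 for Col4a1 (below 0 without AAV2-GFP replicate 2 or 4 or AAV206-GFP replicate 1), from -0.115 to 0.017 for Col4a2 (above 0 without AAV2-GFP replicate 5 or AAV206-GFP replicate 3) and from -0.29 to 0.11 for Col4a6 (above 0 without AAV2-GFP replicate 4 or AAV206-GFP replicate 4 or 5). In the same settings the change in log2 ratio ranged from -0.0011 to 0.092 for Col4a1 to Col4a2, from 0.07 to 0.30 for Col4a3 to Col4a4 and from 0.19 to 0.53 for Col4a5 to Col4a6. The r between mice ranged from -0.0075 to 0.33 for Col4a3 with Col4a4 and from -0.26 to 0.77 for Col4a5 with Col4a6, and 0 to 1 combinations passed. The genes past the threshold numbered 1747, and 991 to 1912 with a library left out, 985 without AAV2-GFP replicates 1 and 4 and 1085 with the replicate block. The pathway genes past it numbered 8, 2 to 8 with a library left out, 3 without AAV2-GFP replicates 1 and 4 and 4 with the replicate block. The replicate numbers share only a number: deviations of same-numbered libraries correlated at -0.04 to 0.02, and 1 of 10 correlated best with its own number. In the sign-flip form of the block the smallest p possible is 0.0625, so it cannot pass. The replicate block changed no chain's call. The cause of these shifts was not tested. The 5 mice a group limit what covariation can be seen, and Col4a6, with 23 to 67 counts, has the widest interval.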
